A study of Mus musculus with 9 samples.

Results

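Ribosome biogenesis genes encode the machinery that makes ribosomes in the nucleolus, and 38 of them, typical targets of the Myc transcription factors, were followed in sorted Scx-GFP-positive cells of mouse embryonic forelimbs. The members were found on the array by their gene symbols. A probe set annotated to a single gene was found for 36 of the 38, out of 18193 genes on the array, and all 36 passed the filter on low signals. The probe set of Mrto4 is listed together with other symbols, and Mrto4 and Npm3 are not analysed here. The array was the Affymetrix Mouse Genome 430 2.0 array, which measures transcripts with groups of short probes called probe sets.

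Every group came from Scx-GFP embryos, whose fluorescent reporter follows the tendon gene Scx, so no group lacked the transgene and all cells were chosen by its expression. Forelimbs were collected on embryonic days E11.5, E12.5 and E14.5, with 3 arrays for each stage that carry the letters A, B and C. Cells were sorted on 1 of 2 instruments, and the labels do not name the instrument of each sample. Nothing in the labels ties the arrays of a stage to separate litters, so p-values measure only the spread between these samples, which may be technical.

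In making a ribosome, RNA polymerase I first transcribes the ribosomal RNA precursor. Small nucleolar ribonucleoproteins then guide chemical modification of that RNA, those of the box C/D kind methylating it and those of the box H/ACA kind converting uridine to pseudouridine. Assembly factors fold and cut the precursor and load ribosomal proteins onto it along separate routes for the small and the large subunit, and dividing cells, which need many ribosomes, are known for high activity of this pathway.

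Promoter sequences are shown because the members were grouped as Myc targets, and Myc with its partner Max is known to bind the hexamer CACGTG. RefSeq promoter windows (build GRCm38.p6, 250 bases before to 50 bases after the annotated start) were matched for 31 of the 36 members, and both strands were searched. CACGTG, which reads the same on both strands, was present in 6 of the 31 members (19.4%), against 11.9% of 9384 tested genes with a window. The stretches around it are given 5′ to 3′ with the hexamer in capitals. The first base of the hexamer lies 60 bases before the start in Nop2 and 20 bases before it in Utp18. In the others it is base 3 (Pes1), 18 (Wdr43), 25 (Tsr1) or 38 (Utp20) of the transcript.
Nop2, chr6:125131796-125131855, plus strand: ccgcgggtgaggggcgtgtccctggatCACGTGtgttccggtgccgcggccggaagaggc
Utp18, chr11:93885767-93885813, minus strand: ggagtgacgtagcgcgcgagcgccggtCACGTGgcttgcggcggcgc
Pes1, chr11:3963965-3963994, plus strand: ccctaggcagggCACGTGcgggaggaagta
Wdr43, chr17:71616220-71616249, plus strand: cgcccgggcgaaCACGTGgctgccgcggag
Tsr1, chr11:74898092-74898121, plus strand: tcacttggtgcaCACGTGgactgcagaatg
Utp20, chr10:88826765-88826789, minus strand: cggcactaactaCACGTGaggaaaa

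The related hexamer CACGCG was found in 9 of the 31 windows (29.0%, against 20.7% of tested genes). CCGGAA, the core recognised by ETS family factors, was found in 14 (45.2%, against 31.4%), and TATAAA in 2 (6.45%, against 8.49%). A match describes letters in this window and is not shown to be a bound site. Of the 6 members with CACGTG, Utp18 and Utp20 were lower at E14.5 than at E11.5 in the test below, and Nop2, Pes1, Wdr43 and Tsr1 were not called.

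Values are MAS5 signals, the array software's estimate of a probe set's brightness on a linear scale, with each array scaled to a common mean. A change is a difference of mean log2 signals with its standard error (SE), from limma, a linear model that shares an estimate of the spread across genes. A gene was called at a Benjamini-Hochberg adjusted p under 0.05 over 11575 genes. The same amount of RNA was amplified from each sample, so a signal is relative to the sample's other transcripts and RNA content per cell was not measured. Signals of different probe sets are not comparable as levels. Comparisons below are within a probe set, or between arrays for the same probe sets summed or averaged over a list. A summed signal is weighted towards the brightest probe sets. Median signals of the 9 arrays ranged from 68.7 to 118, the ratio of the 3′ to the 5′ Gapdh control probe sets from 0.717 to 0.831, and the share of tested genes at the floor of signal from 0.121% to 1.32%.

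The first comparison asks how transcripts of the ribosome-making machinery at E14.5 differed from those at E11.5. Of the 36 members, 13 were lower at E14.5 (36.1%) and none was higher, where 17.7% of all genes tested were called lower and 22.9% higher. The called members covered polymerase I (Polr1b), nucleolar proteins (Ncl, Nolc1), box H/ACA particles (Dkc1), the small subunit route (Heatr1, Utp18, Bysl, Utp20) and the large subunit route (Rrs1, Ddx21, Bop1, Ddx18, Noc2l). Their changes lay between -0.83 (Polr1b) and -0.47 (Noc2l) on the log2 scale. Over all 36 the median change was -0.43, a decrease of 25.7%, and 35 of 36 changes were below 0, against a median of 0.00345 and 49.8% below 0 over all genes tested. Only Nop10 had a change above 0, at 0.03. In 20 of 36 members every E14.5 array lay under every E11.5 array, which held for 24.1% of all genes tested, and in none did every E14.5 array lie above every E11.5 array (27.3% of all genes tested). These 20 were the 13 called members and 7 others.

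**Figure D1:**
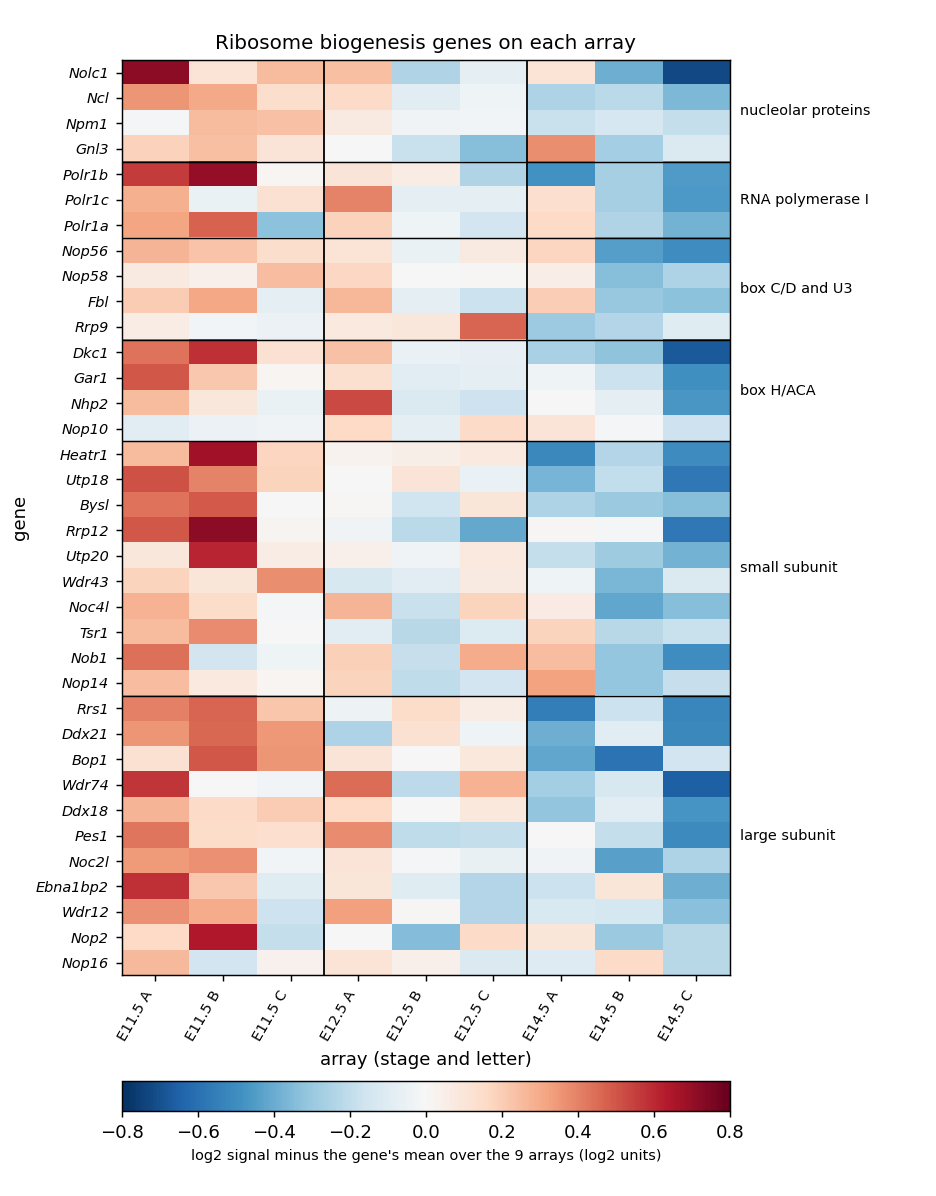
Log2 signal of each of the 36 genes (rows, grouped by role) on each of the 9 arrays (columns, by stage and letter), minus that gene's mean over the 9 arrays, in log2 units. Red is above and blue below the gene's mean, and most rows run from red in the E11.5 columns to blue in the E14.5 columns, with Nop10 and Nop16 close to their means throughout.

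The mean log2 signal over the 36 members was 10.98, 10.95 and 10.74 on E11.5 arrays A, B and C, 10.80, 10.60 and 10.65 on the E12.5 arrays, and 10.59, 10.44 and 10.30 on the E14.5 arrays. All E14.5 arrays lay under all E11.5 arrays, and also under all E12.5 arrays. The spread within a stage ran across members: array A was the highest of its stage for 26 of 36 members at E12.5 (38.3% of all genes tested) and for 23 of 36 at E14.5 (40.4%). Between arrays of one letter, the median of the E14.5 minus E11.5 changes was -0.37 for letter A, -0.52 for letter B and -0.47 for letter C, with 33, 34 and 36 members below 0. Without the 3 arrays of letter A, 8 members were called lower, 7 of them among the 13, where 10.9% of all genes tested were called lower. Fewer cells of a type and less RNA per cell cannot be told apart in sorted pools such as these.

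Among the 4 nucleolar proteins, 2 were called lower at E14.5. Ncl encodes nucleolin, an abundant RNA-binding protein of the nucleolus. Its signal was 15072, 14585 and 13046 on the E11.5 arrays, 13116, 11103 and 11531 on the E12.5 arrays, and 9974, 10175 and 9194 on the E14.5 arrays. Every E14.5 array was below every E12.5 and E11.5 array, and E14.5 averaged 9781 ± 519 against 14234 ± 1057 at E11.5 (SD, n = 3 each; change -0.54 ± 0.13 SE, limma adjusted p = 0.0080). Nolc1 encodes a chaperone of small nucleolar ribonucleoproteins. It read 2231, 1468 and 1618 at E11.5, 1603, 1150 and 1290 at E12.5, and 1465, 1034 and 822 at E14.5. E14.5 lay under E11.5 on every array, but E14.5 A was level with E11.5 B to within 3 units, and both overlapped E12.5 (change -0.70 ± 0.24, limma adjusted p = 0.0443). Nolc1 stayed called when E11.5 B, E12.5 A or E14.5 A was the array left out, and leaving out any other single array ended the call, with an adjusted p of up to 0.146.

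Gnl3 encodes nucleostemin, a nucleolar GTPase, and had the smallest change of the 4. It read 3084, 3207 and 2911 at E11.5, 2710, 2402 and 2142 at E12.5, and 3504, 2249 and 2505 at E14.5. The E14.5 arrays spanned the E11.5 range, with array A the highest of all 9 (change -0.18 ± 0.18, limma adjusted p = 0.452). Npm1, which encodes the histone chaperone nucleophosmin, had a change of -0.33 and lay just outside the threshold (limma adjusted p = 0.0558), with no overlap between E14.5 and E11.5. Without E11.5 A it was called (adjusted p = 0.0405).

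Of the 3 subunits of RNA polymerase I, 1 was called lower. Polr1b, which encodes the second-largest subunit, had the largest change of all 36 members. It read 730.2, 805 and 500.2 at E11.5, 531, 515 and 419 at E12.5, and 354, 411 and 362 at E14.5. All E14.5 arrays were below all E12.5 and E11.5 arrays, while E12.5 overlapped E11.5 through the low E11.5 C array. The mean was 376 ± 30.8 at E14.5 against 679 ± 159 at E11.5 (change -0.83 ± 0.19, limma adjusted p = 0.0075). Polr1b kept its call with any single array left out but not without the arrays of letter A (adjusted p = 0.0775).

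Polr1c encodes a subunit shared with RNA polymerase III. It read 2860, 2259 and 2552 at E11.5, 3088, 2228 and 2231 at E12.5, and 2575, 1950 and 1706 at E14.5, and the 3 stages overlapped (change -0.32 ± 0.20, limma adjusted p = 0.231). Polr1a, the catalytic largest subunit, read 712, 795 and 456 at E11.5, 652, 559 and 515 at E12.5, and 639, 484 and 441 at E14.5. E11.5 C lay below 2 of the E14.5 arrays, and the change did not pass the test (-0.31 ± 0.23, limma adjusted p = 0.315).

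None of the 4 proteins of box C/D particles was called, with changes between -0.47 and -0.20. Nop56, a core scaffold protein, read 4957, 4797 and 4532 at E11.5, 4433, 3961 and 4309 at E12.5, and 4613, 3019 and 2901 at E14.5. Its E14.5 B and C arrays lay below all others, whereas E14.5 A fell within the E11.5 range (change -0.47 ± 0.18, limma adjusted p = 0.0614). Without E14.5 A, Nop56 was called (adjusted p = 0.0043). Nop58, the paired scaffold protein, read 3668, 3578 and 4124 at E11.5, 3911, 3479 and 3512 at E12.5, and 3611, 2745 and 2935 at E14.5. Again E14.5 A lay among the E11.5 arrays and E14.5 B and C below all of them (change -0.30 ± 0.14, limma adjusted p = 0.123), and the call came without E14.5 A (adjusted p = 0.0433).

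Rrp9, a protein of the U3 particle that starts small subunit processing, read 441, 417 and 410.1 at E11.5, 448, 451 and 586 at E12.5, and 347, 361 and 396 at E14.5. It was the one member whose E12.5 arrays all lay above the E11.5 arrays (15.8% of all genes tested), and its E14.5 arrays lay below both (E14.5 minus E11.5 -0.20 ± 0.14, limma adjusted p = 0.288). Fbl, the methyltransferase fibrillarin, had a change of -0.29 with overlapping stages.

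Among the 4 proteins of box H/ACA particles, only Dkc1 was called lower. It encodes dyskerin, the enzyme that makes pseudouridine. Dkc1 read 5801, 6434 and 4679 at E11.5, 5047, 4134 and 4097 at E12.5, and 3595, 3439 and 2702 at E14.5. All E14.5 arrays were below all E12.5 and all E11.5 arrays, and the mean was 3245 ± 477 at E14.5 against 5638 ± 889 at E11.5 (change -0.80 ± 0.17, limma adjusted p = 0.0056). Gar1, another protein of the particle, read 3760, 3099 and 2696 at E11.5, 2916, 2517 and 2533 at E12.5, and 2609, 2371 and 1898 at E14.5. E14.5 did not overlap E11.5, and Gar1 was the member just outside the threshold (change -0.47 ± 0.17, limma adjusted p = 0.0514). It was called without E11.5 C or without E14.5 A, the lower adjusted p being 0.0355.

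Nop10, the smallest protein of the same particle, read 6856, 7093 and 7177 at E11.5, 8156, 6962 and 8138 at E12.5, and 7858, 7262 and 6520 at E14.5. Its stages overlapped and its mean was 7213 ± 670 at E14.5 against 7042 ± 167 at E11.5 (change 0.03 ± 0.13, limma adjusted p = 0.872). Nhp2, the RNA-binding protein of the particle, had a change of -0.28 that did not pass. Dkc1 and Nop10, whose products sit in 1 complex, thus had the second-largest and the smallest change of the 36 members, although the difference between them was not tested.

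**Figure D2:**
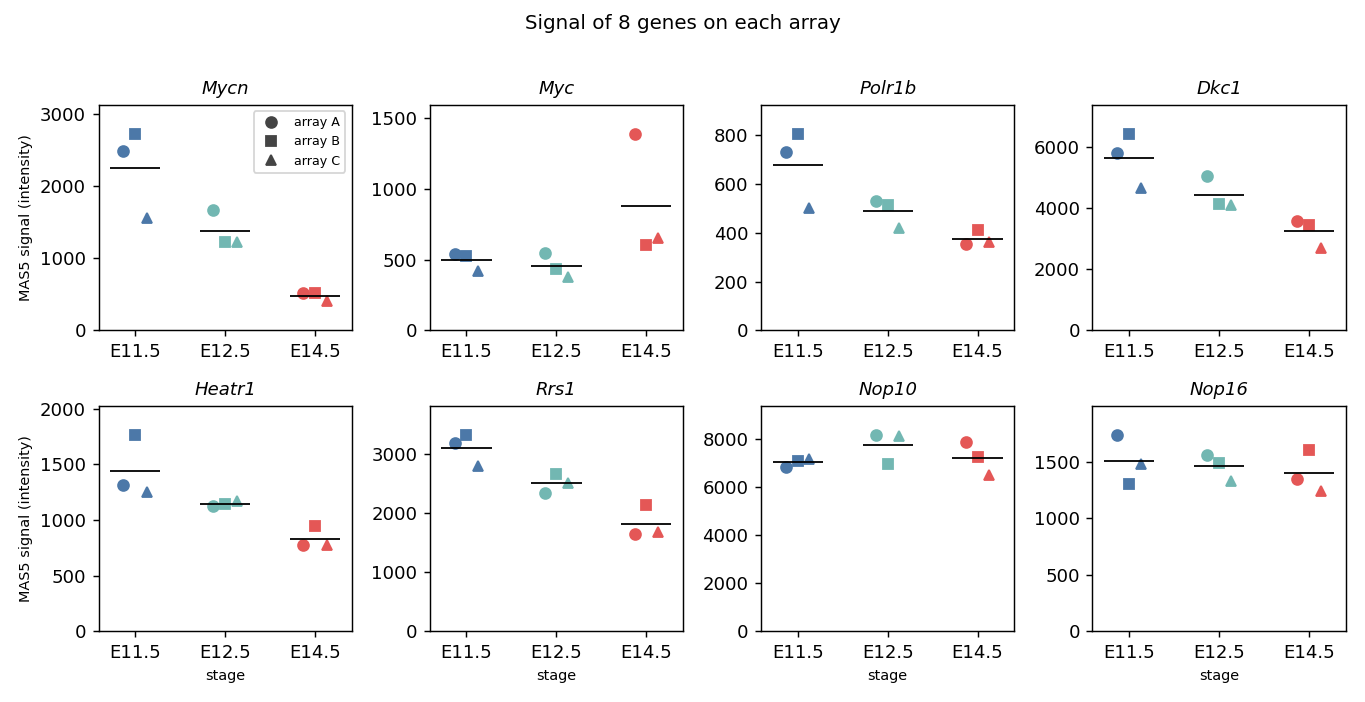
MAS5 signal (vertical axis, intensity, starting at 0) of Mycn, Myc, Polr1b, Dkc1, Heatr1, Rrs1, Nop10 and Nop16 on each array, by stage; the symbol gives the array letter and the line is the stage mean. The E14.5 arrays of Mycn, Polr1b, Dkc1, Heatr1 and Rrs1 lie under all E11.5 arrays, those of Nop10 and Nop16 overlap them, and Myc is highest on E14.5 A.

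Of 10 factors of the small subunit route, 4 were called lower and all 10 had changes below 0. Heatr1 encodes a large protein needed for precursor transcription and early processing. It read 1318, 1760 and 1248 at E11.5, 1126, 1142 and 1169 at E12.5, and 773, 942 and 779 at E14.5. The 3 stages did not overlap at either step, and the mean was 831 ± 95.7 at E14.5 against 1442 ± 278 at E11.5 (change -0.78 ± 0.16, limma adjusted p = 0.0038). Utp18, a protein of the small subunit processome, read 1989, 1842 and 1579 at E11.5, 1404, 1505 and 1351 at E12.5, and 1081, 1220 and 941 at E14.5. Its stages too were fully separated in descending order (change -0.74 ± 0.15, limma adjusted p = 0.0033). A dim further probe set of Utp18, with a mean of 55.4 over the 9 arrays and so below the filter, had a change of 0.94 in the opposite direction.

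Nop14, a processome factor, had the smallest change of the route. It read 783, 697 and 666 at E11.5, 747, 573 and 594 at E12.5, and 824, 533 and 580.4 at E14.5. The highest and the lowest value were both E14.5 arrays, A and B (change -0.17 ± 0.19, limma adjusted p = 0.503). The other called members of the route were Bysl, which encodes bystin (change -0.60, adjusted p = 0.0121), and Utp20 (-0.54, adjusted p = 0.0256). The Utp20 call was lost without E11.5 B, E14.5 B or E14.5 C (adjusted p up to 0.0756). Rrp12, an export factor of pre-ribosomes, had a change as large as that of Bysl, at -0.60, but more spread (adjusted p = 0.0558), and was called without E11.5 C (adjusted p = 0.0209). Wdr43 (-0.39) and Noc4l (-0.37) were called only when E14.5 A was left out, among single arrays, with adjusted p of 0.0454 and 0.0451. Tsr1 (-0.29) and Nob1 (-0.27), which act late in small subunit maturation and of which Nob1 is the nuclease that trims the small subunit RNA, were not called.

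Of 11 factors of the large subunit route, 5 were called lower, and again all 11 changes were below 0. Rrs1, an assembly factor of the large subunit, had the lowest adjusted p of the members. It read 3179, 3317 and 2803 at E11.5, 2337, 2662 and 2505 at E12.5, and 1639, 2141 and 1674 at E14.5. The 3 stages were separated at each step, and the mean was 1818 ± 279.8 at E14.5 against 3099.5 ± 266 at E11.5 (change -0.78 ± 0.15, limma adjusted p = 0.0026). Ddx21, a nucleolar RNA helicase, read 1995, 2147 and 1993 at E11.5, 1316, 1700.4 and 1527 at E12.5, and 1194, 1471 and 1093 at E14.5. The E12.5 arrays lay below the E11.5 arrays but overlapped those of E14.5 (E14.5 minus E11.5 -0.72 ± 0.15, limma adjusted p = 0.0050).

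Nop16 had the smallest change of the route. It read 1737, 1304 and 1481 at E11.5, 1560, 1492 and 1336 at E12.5, and 1346, 1607 and 1242 at E14.5. All stages overlapped (change -0.11 ± 0.16, limma adjusted p = 0.621). Bop1, Pes1 and Wdr12 encode the partners of 1 complex that processes the large subunit RNA, and of these Bop1 was called (-0.71, adjusted p = 0.0053) while Pes1 (-0.47, adjusted p = 0.0903) and Wdr12 (-0.36, adjusted p = 0.158) were not. The helicase gene Ddx18 (-0.50, adjusted p = 0.0150) lost its call without E14.5 C (adjusted p = 0.0545). Noc2l (-0.47) lay just inside the threshold (adjusted p = 0.0399), and its call held only without E11.5 C or without E14.5 A among the 9 single arrays left out. Wdr74 (-0.53), Ebna1bp2 (-0.39) and the RNA methyltransferase gene Nop2 (-0.34) were not called.

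**Figure D3:**
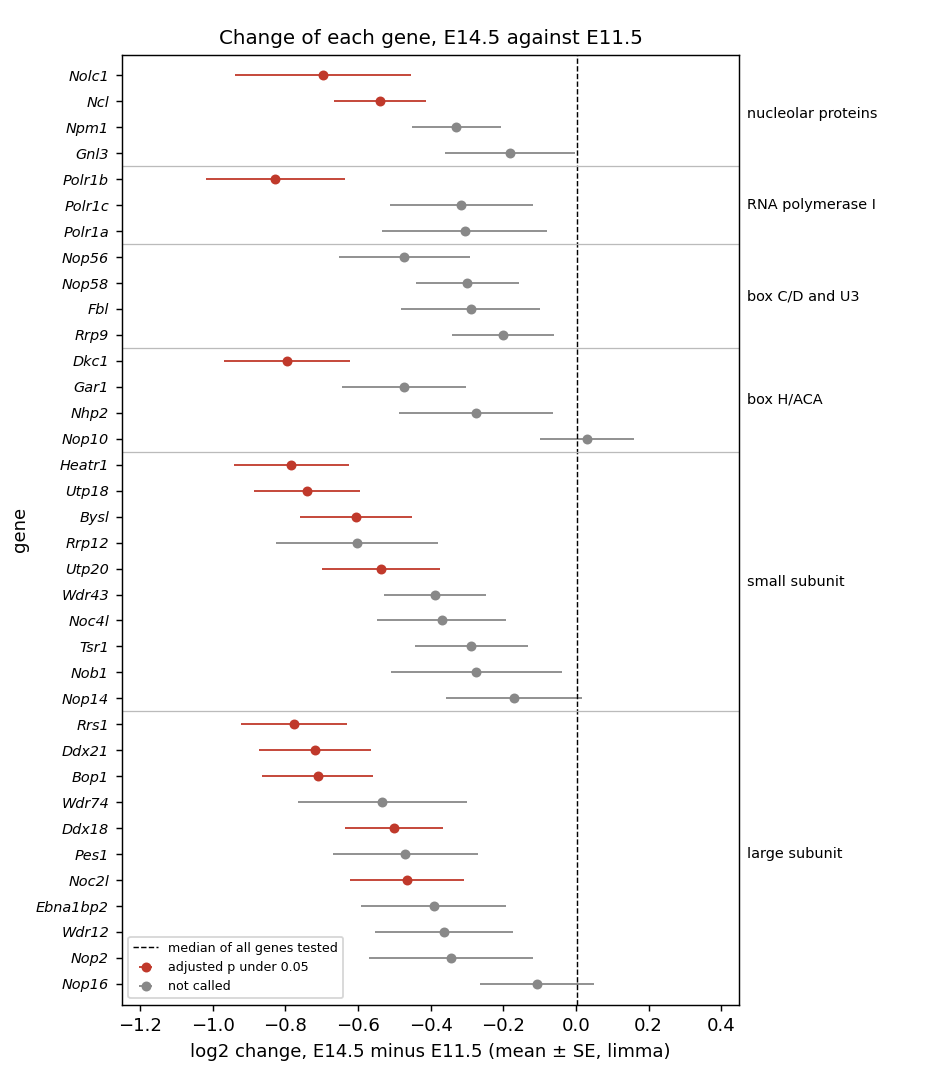
Log2 change of each of the 36 genes, E14.5 minus E11.5 (horizontal axis), with points for limma estimates and bars for the SE, grouped by role. Red marks the 13 genes with an adjusted p under 0.05, and the dashed line is the median of all genes tested; every point except Nop10 lies left of it.

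The stage at which the decrease arose was examined over the intervals on either side of E12.5. From E11.5 to E12.5 no member was called, where 0.441% of all genes tested were called lower and 3.11% higher. At an unadjusted limma p under 0.05, 5 members were lower and none higher, against 433 lower and 1417 higher among all 11575 genes. The median change was -0.23 and 33 of 36 were below 0, against a median of 0.04 and 43.5% below 0 over all genes tested. In 10 members every E12.5 array lay under every E11.5 array (7.75% of all genes tested). With the array letters as a replicate block, which their pairing across these stages allowed, Rrp12 was called lower (-0.63, adjusted p = 0.0456), as were 0.631% of all genes tested. Rrp12 read 317, 278 and 243 at E12.5 against 455, 531 and 328 at E11.5, without overlap.

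From E12.5 to E14.5, Rrs1 alone was called lower (-0.47 ± 0.15, limma adjusted p = 0.0467) and none was called higher, where 9.32% of all genes tested were called lower and 12.6% higher. The median change was -0.27 and 32 of 36 were below 0, against a median of -0.05 and 54.3% below 0 over all genes tested. In 12 members every E14.5 array lay under every E12.5 array (21.9% of all genes tested), while in none did every E14.5 array lie above them (20.6%). With the replicate block 4 members were called, Rrs1 (adjusted p = 0.0288), Heatr1 (0.0386), Dkc1 (0.0411) and Utp18 (0.0443). That share, 4 of 36, was near the 11.9% of all genes tested that were called lower with the block. No member was called without E11.5 A, E11.5 C or any 1 of the E12.5 arrays. Without E14.5 B there were 2 calls, without E11.5 B the single call was Heatr1 (adjusted p = 0.0314), and without E14.5 A it was Nop56 (adjusted p = 0.0292).

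The change over the later, 2-day interval was set against that over the earlier, 1-day one. No member was called in this difference, where 0.138% of all genes tested were called lower and 0.631% higher. At an unadjusted limma p under 0.05, 1 member was lower, against 681 lower and 634 higher among all 11575 genes. Rrp9 and Rrp12 had the most unlike intervals: Rrp9 changed by 0.22 and then -0.42, and Rrp12 by -0.63 and then 0.03, neither difference passing (limma adjusted p = 0.343 and 0.579). Stage means were in descending order from E11.5 over E12.5 to E14.5 in 29 of 36 members, against 30.6% of all genes tested. limma's F-test for any difference among the stages called 10 members (27.8%), against 33.7% of all genes tested, a lower share than the background. The F-test called 6 members without E11.5 A, 6 without E11.5 B and 5 without E14.5 C.

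The 36 members were set beside other genes of the pathway, taken from lists by role. Of 47 other small subunit factors, 28 were lower at E14.5 than at E11.5 and none higher, with a median change of -0.45. The 28 made up 59.6% of this list, against 17.7% called lower among all genes tested. The largest called changes were those of Tbl3 (-1.06), Dhx37 (-0.90), Utp23 (-0.85) and Nol10 (-0.82). Of 51 other large subunit factors, 19 were lower (37.3%) and none higher (median -0.41), led by the GTPase gene Gtpbp4 (-0.86), Ftsj3 (-0.81), Nol8 (-0.78) and Rsl1d1 (-0.71). Of 16 other genes of the polymerase I machinery, 3 were lower (18.8%, near the 17.7% of all genes tested) and none higher (median -0.22). These were Polr1e, a polymerase subunit (-0.87), Tcof1, which encodes the nucleolar protein treacle (-0.82), and Rrn3, the initiation factor that recruits the polymerase (-0.52). Polr1e lost its call without E14.5 C (adjusted p = 0.0507), and Rrn3 kept its call in 13 of 22 alternatives, losing it among single arrays without E11.5 A, E11.5 B, E12.5 B, E14.5 B or E14.5 C (adjusted p up to 0.120 over the alternatives). The medians of the assembly factor lists were close to the -0.43 of the members.

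Of 43 cytoplasmic ribosomal protein genes, none was called lower and 1 higher (17.7% and 22.9% of all genes tested), with a median change of 0.02. They encode the proteins that the biogenesis factors assemble into ribosomes. The one call, Rps27 (1.16 ± 0.39, limma adjusted p = 0.0404), was kept in 8 of 22 alternative settings. Apart from Rps27 and Rpl39 (-0.53, limma adjusted p = 0.0922) the changes lay between -0.08 (Rpl14) and 0.17 (Rps19), the last 3 genes being named after their values were seen. Of 79 ribosomal protein genes listed, 44 had a probe set of their own, and 43 were tested, since that of Rps16 did not pass the filter on low signals. The summed signal of the 43 was 760761 to 847085 at E14.5 against 712957 to 829848 at E11.5, and that of the 36 biogenesis genes was 80663 to 95952 at E14.5 against 109801 to 120436 at E11.5. Of 74 mitochondrial ribosomal protein genes, 21 were lower (28.4%) and 2 higher (2.70%), with a median of -0.25. The largest falls were those of Mrps22 (-0.93), Mrpl34 (-0.80), Mrpl44 (-0.70) and Mrps5 (-0.68). Mrps5 kept its call in 14 of 22 alternatives and lost it, among single arrays, without E11.5 A, E12.5 A, E12.5 C, E14.5 B or E14.5 C (adjusted p up to 0.127 over the alternatives). Mrps16 (0.43) and Mrpl48 (0.37) were called higher, against the list's direction, in 9 and 10 of 22 alternatives, and were named after their values were seen.

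**Figure D4:**
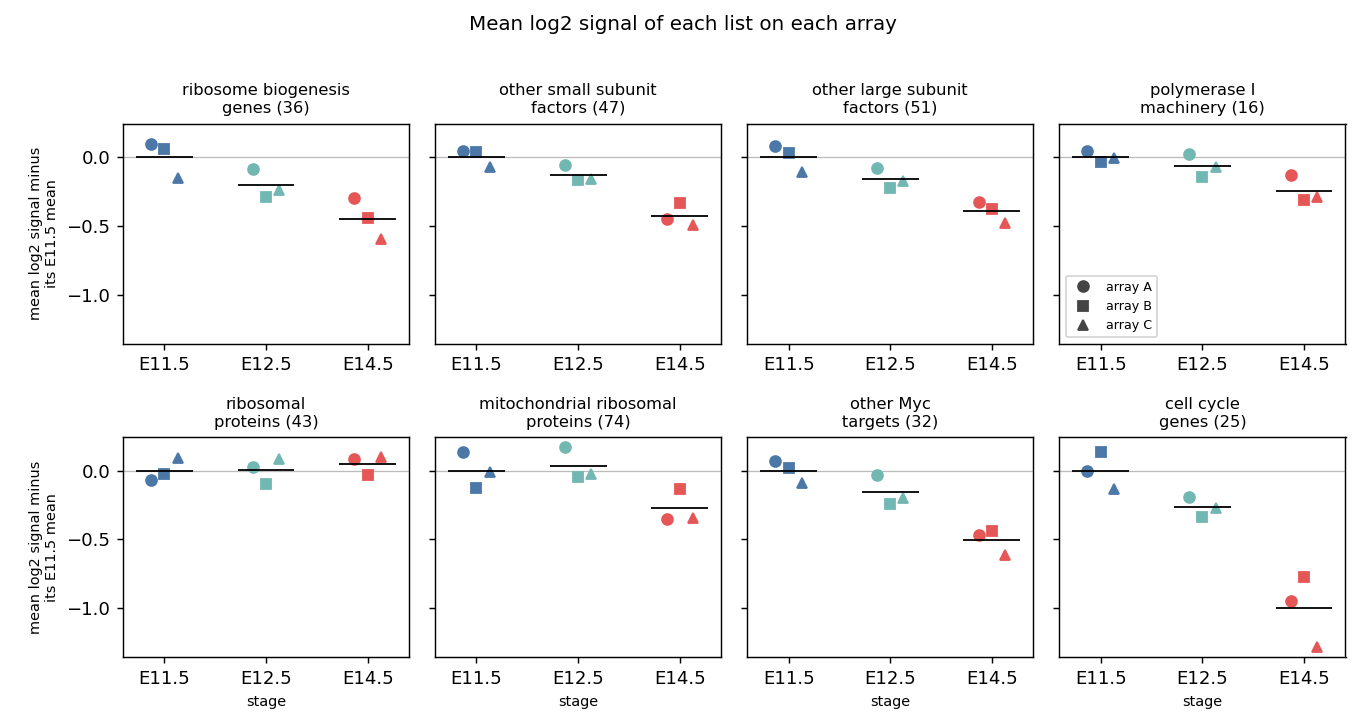
Mean log2 signal of each gene list on each array, minus that list's E11.5 mean (vertical axis, log2 units), by stage; symbols give the array letter, lines the stage means, and the number of genes is in brackets. The biogenesis and assembly factor lists lie near -0.4 at E14.5, the ribosomal proteins near 0 and the cell cycle genes near -1.

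**Figure D5:**
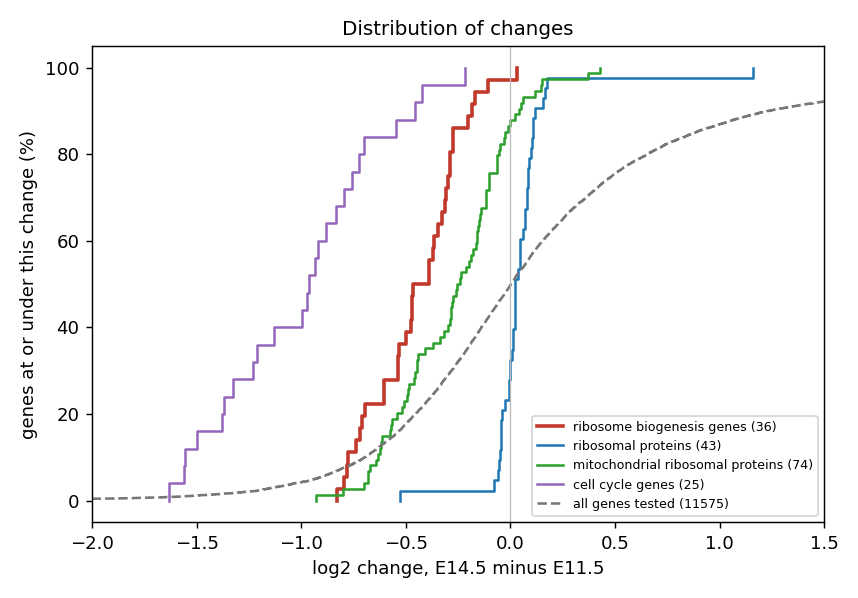
Cumulative share of genes (vertical axis, percent) at or under each log2 change, E14.5 minus E11.5 (horizontal axis), for 36 ribosome biogenesis genes, 43 ribosomal protein genes, 74 mitochondrial ribosomal protein genes, 25 cell cycle genes and all 11575 genes tested. The biogenesis curve lies left of 0 apart from Nop10, the ribosomal protein curve rises steeply near 0, and the curve of all genes is far wider than either.

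Myc proteins switch on many ribosome biogenesis genes, and the levels of Mycn and Myc were followed beside them. Mycn read 2489, 2726 and 1565 at E11.5, 1672, 1223 and 1233 at E12.5, and 513, 525 and 407 at E14.5. All E14.5 arrays were below all others, and Mycn fell by 2.20 on the log2 scale at E14.5 relative to E11.5 (SE 0.23, limma adjusted p = 9.1e-05), a call kept in all 22 alternatives. Myc read 544, 529 and 418 at E11.5, 547, 436 and 374 at E12.5, and 1389, 607 and 653 at E14.5. Every E14.5 array exceeded every other array, and array A most, but the change was not called (0.73 ± 0.30, limma adjusted p = 0.0785); it was called with the replicate block, with the trended and robust prior and without E14.5 B, and was 0.35 at its lowest over the alternatives. Of 12 genes of the Myc network, 2 were lower, Mycn and Mycl (-0.76), and 1 higher, the Myc antagonist gene Mxd4 (0.50). The 16.7% called lower was near the 17.7% of all genes tested, and the 8.33% called higher was under their 22.9%. The median change of the list was -0.09. Mycl lost its call without E14.5 A, E11.5 A or E11.5 B (adjusted p up to 0.0718 over the alternatives), and Mxd4 was called in 8 of 22 alternatives.

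Of 32 Myc targets outside ribosome making, 20 were lower (62.5%, against 17.7% of all genes tested) and none higher (median -0.48). The purine synthesis gene Ppat (-1.20), the DNA repair gene Apex1 (-1.12), the transferrin receptor gene Tfrc (-0.996) and the chaperone gene Fkbp4 (-0.95) had the largest changes. Transcripts of cell cycle genes were also lower at E14.5 than at E11.5. Of 25 such genes, 21 were lower (84%) and none higher (median -0.96), among them Aurka (-1.63), Rrm2 (-1.56), Bub1 (-1.56) and Plk1 (-1.50). Their median change was -0.24 from E11.5 to E12.5 and -0.68 from E12.5 to E14.5. The members' medians over the same intervals were -0.23 and -0.27, and the lists were not tested against each other. The part of cell division in the change of the biogenesis genes was not tested. Of 8 genes induced by p53, which responds to failed ribosome assembly, 1 was lower, Pmaip1 (-3.77). The 2 called higher were Phlda3 (1.22) and Ccng1 (0.84). These counts were near the shares of all genes tested, 17.7% lower and 22.9% higher. The median change of the 8 genes was -0.33, and 5 of the 8 changes were below 0. A response of p53 was not tested.

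The sorted cells' markers changed over the same days. Of 8 tendon genes, 7 were higher at E14.5 and 1, Scx, lower (-0.81, adjusted p = 0.0164), with summed signals of 73838 to 101591 at E14.5 against 31377 to 43452 at E11.5. The Scx call was lost without E14.5 A, E14.5 B, E11.5 B or E11.5 C and with the Gapdh covariate (adjusted p up to 0.124). Of 9 cartilage genes, 6 were higher and none lower, and their summed signal ranged from 8434 to 71921 at E14.5 against 15534 to 18439 at E11.5. Their mean log2 signal was 12.52 on E14.5 A, 10.16 on E14.5 B and 8.91 on E14.5 C. Col11a2 and Matn1, among the 6, kept their calls in 6 and 5 of 22 alternatives. E14.5 A was the highest E14.5 array for 23 of the 36 biogenesis genes, against 40.4% of all genes tested. Without it 18 of the 36 were called lower, where 15.5% of all genes tested were. At E12.5, array A was the highest for 26 of the 36, against 38.3% of all genes tested. The cartilage mean at E12.5 was 9.79 on array A, 9.88 on B and 10.15 on C. A link between the cartilage and biogenesis signals was not tested. Of 10 muscle genes, 3 were higher and 1 lower (summed signal 9422 to 12337 at E14.5 against 4317 to 7076 at E11.5). The muscle counts, 30% higher and 10% lower, were near the 22.9% higher and 17.7% lower of all genes tested. Tested genes of endothelium (3 of 7 listed, all 3 higher, 662 to 1113 against 93.3 to 284) and epidermis (3 of 7 listed, all 3 higher, 722 to 909 against 410 to 470) were dim. A gene could pass the filter on the 3 E14.5 arrays alone, so for such dim genes these counts cannot show a direction. Of 3 tested blood genes 1 was higher and 1 lower (222 to 678 against 554 to 3211), and of 3 nerve genes 1 was lower (471 to 564 against 626 to 815). The defining genes Pecam1, Krt14, Ptprc and Sox10 did not pass the filter on low signals, no marker was listed at 0, and the part of other cell types in the result was not tested.

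The choice of probe set bears on some members. The 36 members had 75 probe sets, and of the 39 not used 32 passed the same filter, of which 29 had an E14.5 minus E11.5 change below 0. When the probe sets of a gene were averaged, Utp18, Heatr1, Bop1 and Noc2l lost their calls while Nop56, Wdr43, Noc4l, Wdr12 and Ebna1bp2 gained one, which made 14 calls, 9 of them among the 13 (14.1% of all genes tested were called lower). The Utp18 change became 0.10, its dim further probe set being part of that average. The Ebna1bp2 average likewise took in a probe set below the filter, with a mean of 26.6 over the 9 arrays and a change of -1.14. Dkc1, Rrs1 and Ddx21 were called in each of 22 alternative settings, and 9 of the 13 called members with each single array left out.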

How the data were processed

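Signals were the authors' deposited intensity values, one per probe set and array, for which the submitters' processing notes name MAS5 and version 1.1 of the Affymetrix Expression Console. Each deposited array had a mean of 500, leaving out the lowest and highest 2% of signals, and no further normalization was applied. Genes were named through the platform's annotation, and each was represented by the probe set with a single symbol and the highest mean log2 signal, _x_at probe sets only where no other existed. Signals under 22.7, the 25th percentile, were set to that floor, and genes were tested that had signals above the median, 90.6, on 3 or more of 9 arrays.

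The 9 arrays were fitted together in limma 3.58.1 (R 4.3.3) with 1 mean per stage and 6 residual degrees of freedom, with two-sided contrasts. The number of arrays limits the precision. The members and lists were chosen with earlier results of these data known. Members given with their value on every array are, in each role, the pair with the largest change and the one with the smallest; the others are given by their change. In other lists up to 4 called genes with the largest change are named, plus Myc and Mycn, and further genes where 1 carries a count, a check of the sort or a filter. Deviations from stage means correlated between arrays of the same letter at 0.520, 0.133 and 0.332 (A, B, C) for E12.5 with E11.5 and at 0.310, 0.121 and 0.289 for E14.5 with E12.5, which was taken as pairing. The labels do not state such a pairing. Alternatives changed the floor, filter, probe set, normalization, variance model, samples and replicate block.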

Additional observations from a re-analysis of the deposited data

How the results depend on the processing

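Over 22 alternatives for each of 36 members, the E14.5 minus E11.5 change kept its side of the threshold in 713 of 792 cases. It passed the threshold anew in 45, lost its call in 33 and reversed in 1, Utp18 with the mean of probe sets (0.10). Only reversals that involved a call were counted. Changes that were never called could switch sign within the 713, as those of Nop10 (down to -0.05) and Nop16 (up to 0.04) did. The count of members lower at E14.5 than at E11.5 was 13, ranged from 9 to 18 when 1 array was left out, was 8 without the arrays of letter A, and lay between 10 and 19 in the other settings, highest with median centring. The same-letter correlation for E14.5 with E11.5 was 0.313 for letter A, -0.00516 for B and 0.238 for C. Each array was closest to its own letter for A and C but not for B. By the rule that every pair exceed 0.1, the letters were not taken as pairing these 2 stages. The replicate block was a single fit over all 9 arrays, so its calls for the other intervals rest on that pairing too. For E14.5 against E11.5 the block gave 18 calls. From E11.5 to E12.5 the count was 0, and 1 under the replicate block or when probe sets were averaged. The call with averaged probe sets was Ebna1bp2 (-0.73), whose average took in a probe set below the filter (-1.15). From E12.5 to E14.5 the count was 1; it was 0 with no filter and without the arrays of letter A, 2 with median centring, quantile normalization, array weights and the Gapdh covariate, 3 with the mean of probe sets, 4 with the replicate block, 5 with the trended prior, and 0 to 2 when 1 array was left out. The difference between the intervals gave 0 calls in every alternative run. The F-test count was 10, 5 to 10 when 1 array was left out and 1 without the arrays of letter A. Median changes stayed below 0 in every alternative run. The causes of these shifts were not tested. Genes without a probe set of their own and 3 arrays a stage limit what can be seen. Members close to the threshold had changes of unlike size, among them Npm1 (-0.33), Wdr43 (-0.39) and Nolc1 (-0.70). Their limma adjusted p were 0.0558, 0.0522 and 0.0443.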
